A study of Mus musculus with 12 samples.

Results

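Hox genes code for homeodomain transcription factors that set positional identity along the body axis of the embryo, and they lie in 4 clusters, Hoxa, Hoxb, Hoxc and Hoxd. The genes examined here were all protein-coding genes of the GENCODE M21 annotation (mm10, GRCm38) whose symbol is Hoxa, Hoxb, Hoxc or Hoxd followed by a number. This rule found 39 genes among 21911 protein-coding genes, with 11 in Hoxa, 10 in Hoxb, 9 in Hoxc and 9 in Hoxd. The rule used names alone and no measured value. The readout was histone H3 acetylated at lysine 9 (H3K9ac), a modification found at the starts of active genes and at active enhancers. It was mapped by ChIP-seq, in which chromatin fragments are recovered with an antibody and sequenced.

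The libraries came from whole liver of adult mice. The parental strains were C57BL/6J (B6, n = 2), the source of the reference genome, and MSM/Ms (MSM, n = 2), an inbred strain of wild-mouse origin. Reciprocal F1 hybrids added F1 BM, with a B6 mother and an MSM father (n = 1), and F1 MB, with an MSM mother and a B6 father (n = 1). The study describes the parental libraries as separate individuals; each F1 cross was 1 library, so its values carry no replicate error. Input libraries of the same groups were not analysed here. The study compared the strains to ask how acetylated domains differ between them, and the Hox genes were examined as developmental genes expected to be mostly silent in adult liver. The length of the lists, which bears on every count below, ran from 11619 peaks in B6 replicate 2 to 22968 in B6 replicate 1. F1 BM had 20173 peaks, MSM replicates 1 and 2 had 17310 and 17584, and F1 MB had 13235. Read counts were not in the lists, so the absence of a peak cannot be told from acetylation too weak to be called at the depth of that library.

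Hox genes are switched on in the embryo in the order of their position in the cluster, in part under retinoic acid, and their products bind DNA together with the TALE homeodomain proteins Pbx, Meis and Pknox. In most cells where they are off, the clusters are held by Polycomb complexes, which place methyl groups on lysine 27 of histone H3 and oppose the Trithorax-group methyltransferases. The same lysine 27 can be acetylated, and acetylated histone H3 is scarce over Polycomb-bound chromatin. Lysine 27 methylation was not measured in these libraries.

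H3K9ac peaks were nearly absent from the Hox clusters in all 6 livers. A peak lay within 2 kb of the annotated start of 1 Hox gene in B6 replicate 1 (Hoxb5), 1 in MSM replicate 2 and 1 in F1 BM (Hoxa5). B6 replicate 2, MSM replicate 1 and F1 MB had a peak at 0 of the 39 starts. The Hox share was therefore 2.56% or 0% in each library. Over all protein-coding genes B6 replicate 1 had the highest share, 45.2%, and B6 replicate 2 the lowest, 28.8%. The MSM libraries had 36.6% (replicate 1) and 37.2% (replicate 2), F1 BM had 36.4% and F1 MB had 32.6%. The Hox share minus that of all genes averaged -34.8 ± 4.61 percentage points (SD over the 6 libraries). No test was made of this difference, because the genes were chosen with results of these data known.

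**Figure D1:**
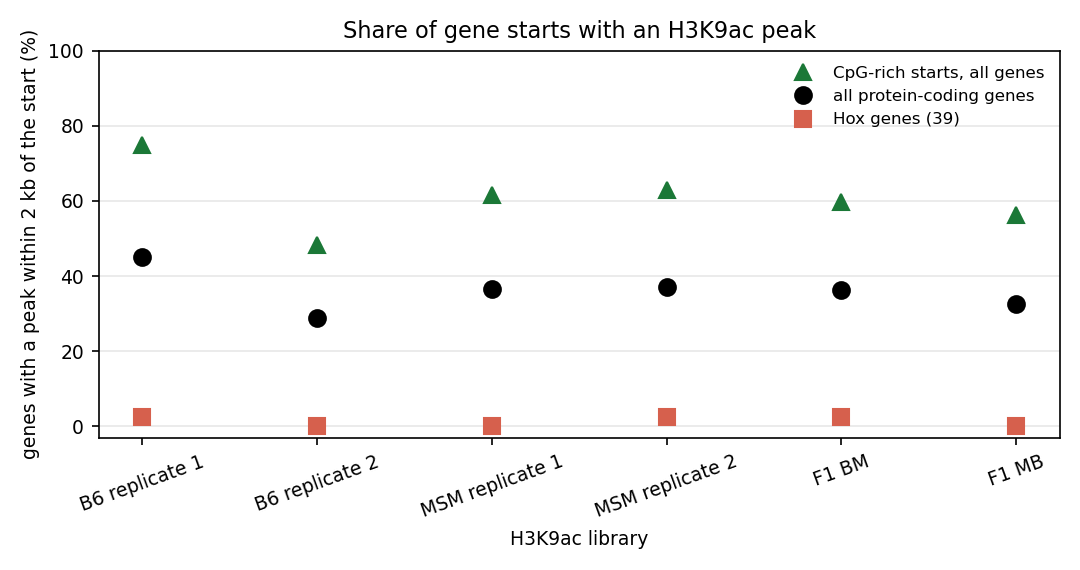
Share of gene starts with an H3K9ac peak within 2 kb (y axis, percent) in each of the 6 libraries (x axis). Squares are the 39 Hox genes, circles all 21911 protein-coding genes, and triangles the 9732 genes with a CpG-rich start; the squares lie at 0% or 2.56% in every library, and the circles between 28.8% and 45.2%.

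Counted over the 6 libraries together, 3 of the 39 Hox genes (7.69%) had a peak in at least 1 library, against 46.8% of all protein-coding genes. None of the Hox genes had a peak in all 6 libraries, against 24.4% of all genes. The other 36 Hox genes (92.3%) had a peak in no library, as did 53.2% of all genes. Each of the 3 Hox genes with a peak had it in exactly 1 library, a class that held 4.78% of all genes. All genes of Hoxc and Hoxd were among the 36.

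The sequences of 2 stretches are shown, the only place where peaks of more than 1 library overlapped and the peak with the highest −log10 q in the clusters. They are the reference sequence of GRCm38 (RefSeq assembly GRCm38.p6), so they are those of B6 and not of MSM. Both are written 5′ to 3′ on the plus strand, and capitals mark the CpG dinucleotides. The stretch shared by peaks of B6 replicate 1 and MSM replicate 1 (chr11:96342063-96342287, 225 bp, 17 CpGs) lies in an intron of Hoxb3 and overlaps in part the 5′ end of the antisense noncoding gene Gm11536. The F1 BM peak at Hoxa5 (chr6:52203327-52203561, 235 bp, 9 CpGs) lies in the intron of Hoxa5, a gene on the minus strand.
Hoxb3 intron: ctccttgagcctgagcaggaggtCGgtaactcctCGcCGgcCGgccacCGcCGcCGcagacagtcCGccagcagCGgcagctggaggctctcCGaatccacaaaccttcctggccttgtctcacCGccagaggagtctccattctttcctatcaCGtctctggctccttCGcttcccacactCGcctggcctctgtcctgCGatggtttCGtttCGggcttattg
Hoxa5 intron: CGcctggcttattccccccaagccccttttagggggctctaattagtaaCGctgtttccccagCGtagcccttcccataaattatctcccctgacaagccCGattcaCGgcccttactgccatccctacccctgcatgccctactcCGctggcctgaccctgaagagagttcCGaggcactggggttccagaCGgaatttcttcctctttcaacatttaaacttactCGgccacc
The Hoxb3 stretch was the denser in CpGs.

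Hoxb5, of paralogue group 5 (ENSMUSG00000038700.4, chr11:96303336-96306121, plus strand), codes for a factor of the upper trunk region of the embryo. Its B6 replicate 1 peak (chr11:96304069-96304425, 357 bp) had a fold enrichment of 4.53 and a −log10 q of 4.38. Fold enrichment is the authors' ratio of signal at the summit to background, and q is the p-value of the peak corrected for multiple testing. The near edge lay 733 bp downstream of the start. In the other libraries no peak was listed at Hoxb5, and the nearest lay 227726 bp away in B6 replicate 2 and 227741 bp away in F1 MB. It was closer in F1 BM, at 11349 bp, and in MSM replicate 1, at 38727 bp, while MSM replicate 2 had it 227700 bp away. The B6 replicates thus differed from each other at this gene, and only replicate 1 had the peak.

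Hoxa5, also of paralogue group 5 (ENSMUSG00000038253.6, chr6:52201754-52204587, minus strand), acts in the developing lung and upper trunk. The F1 BM peak began 1026 bp downstream of its start and had a fold of 3.47 and a −log10 q of 6.97. This was the highest −log10 q among all peaks in the clusters, and 28.6% of the F1 BM list had a lower one. The nearest peak to Hoxa5 lay 45336 bp away in MSM replicate 2 and between 191531 and 434764 bp away in the other 4 libraries.

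Hoxb2 and Hoxb4 lay just outside the 2 kb limit. A B6 replicate 1 peak (chr11:96352554-96352818, fold 3.56, −log10 q 2.91) began 2029 bp downstream of the start of Hoxb2, a hindbrain gene. Another B6 replicate 1 peak (chr11:96315007-96315284, fold 4.7, −log10 q 5.16) ended 2983 bp upstream of Hoxb4. Within 5 kb of a start, 5 of the 39 Hox genes had a peak in at least 1 library, against 49.2% of all genes, and the added genes were Hoxb2 and Hoxb4. Several genes of the clusters have transcripts with other starts. With the start of any protein-coding transcript in place of the 5′ end of the gene, 5 Hox genes had a peak in at least 1 library, against 49.3% of all genes, and the added genes were Hoxb2 and Hoxb3.

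The 39 starts are not independent places. Hoxd3 and Hoxd4 begin 2 bp apart in the annotation, and Hoxc10 and Hoxc5 begin 647 bp apart, so a peak there would have counted for both genes. No peak lay at either pair. Some of these 5′ ends belong to long transcripts that begin far from the body of the gene.

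The whole clusters were then searched, from the first to the last annotated base of their Hox genes. Hoxa spans chr6:52155590-52260880 (105 kb), Hoxb chr11:96194316-96368256 (174 kb), Hoxc chr15:102921103-103036852 (116 kb) and Hoxd chr2:74668310-74765142 (96.8 kb), 492 kb in all. The 6 lists held 9 peaks in these intervals. Hoxb had 6 peaks, Hoxa had 3, and Hoxc and Hoxd had 0 in all 6 libraries. B6 replicate 1 held 4 of the 9, all in Hoxb, and F1 BM held 3, with 2 in Hoxa and 1 in Hoxb. MSM replicate 1 had 1 peak in Hoxb and MSM replicate 2 had 1 in Hoxa. B6 replicate 2 and F1 MB had 0 peaks in any Hox cluster. The libraries with most Hox peaks were those with the longest lists, and those with none had the shortest.

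**Figure D2:**
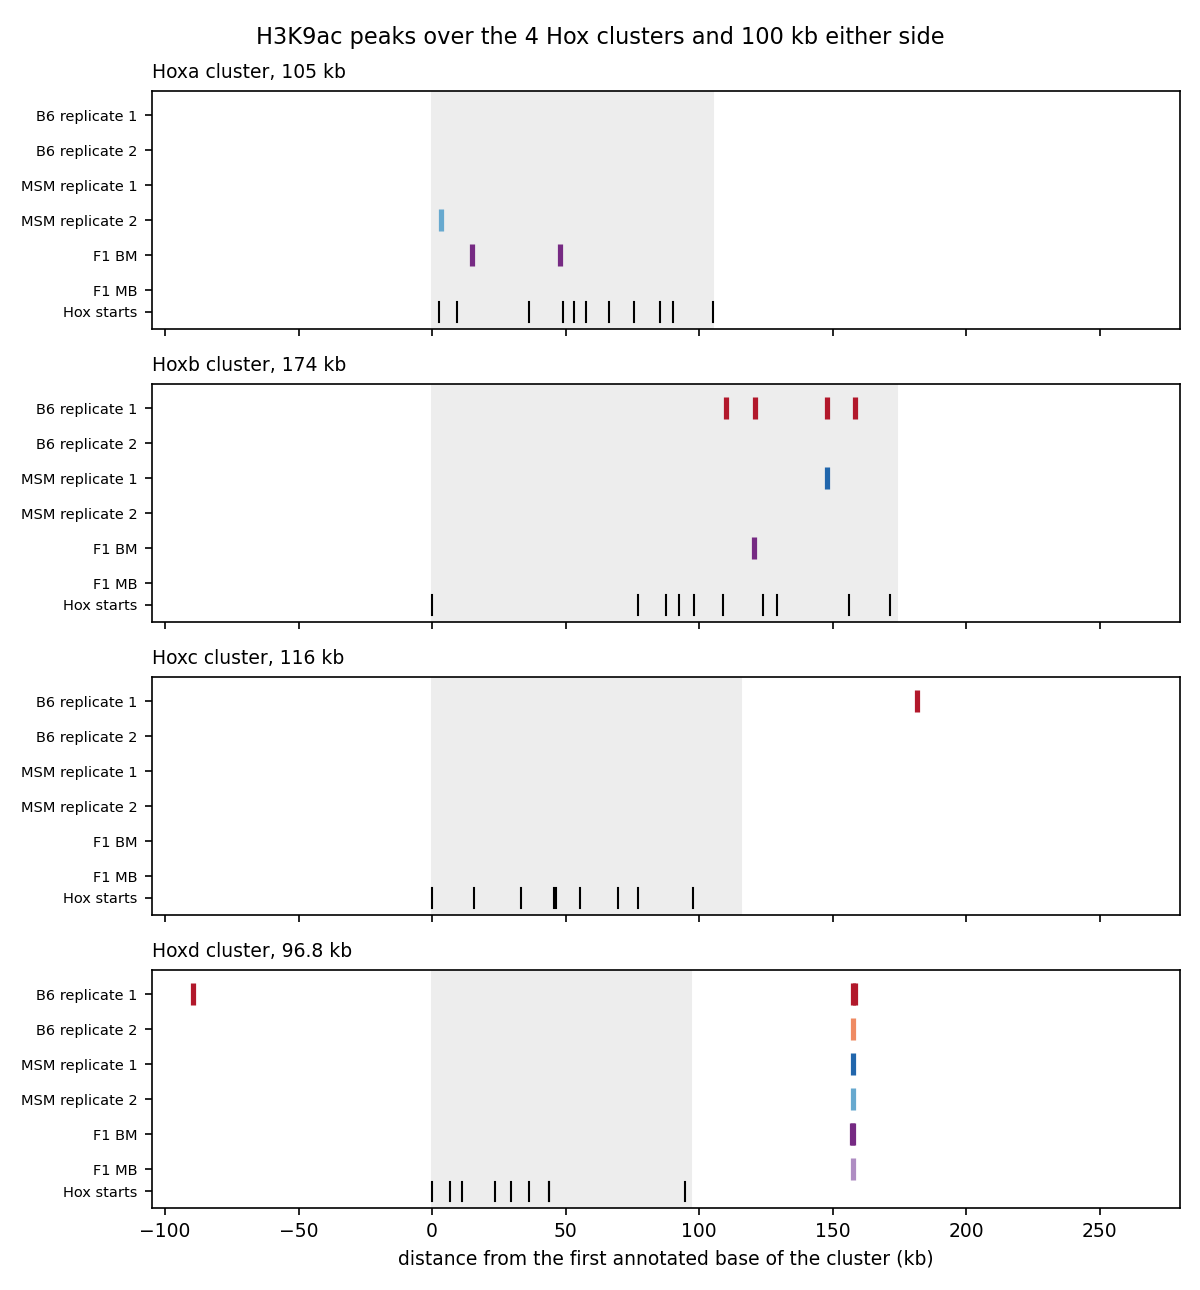
Peaks (coloured ticks, 1 row per library) over the 4 Hox clusters (grey) and 100 kb either side, against the distance in kb from the first annotated base of each cluster; black ticks are the annotated Hox starts, and Hoxd3 and Hoxd4 coincide. Peaks are seen in Hoxa and Hoxb, with ticks of 2 libraries overlapping only in the Hoxb3 intron, none in Hoxc or Hoxd, and the ticks of all 6 libraries line up beyond the right edge of Hoxd, at Mtx2.

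Other peaks lay away from the annotated 5′ ends of the Hox genes. An F1 BM peak in the last coding exon of Hoxa3 (chr6:52170421-52170650) had a fold of 2.68 and a −log10 q of 2.99, and lay 5590 bp upstream of the start of Hoxa2. An F1 BM peak between Hoxb5 and Hoxb4 (chr11:96314685-96314932) had the same fold and −log10 q, and lay close to, but without overlap with, the B6 replicate 1 peak upstream of Hoxb4. In the Hoxb3 intron, the B6 replicate 1 peak (chr11:96341930-96342287, fold 4.88, −log10 q 5.96) overlapped that of MSM replicate 1 (chr11:96342063-96342306, fold 4.51, −log10 q 4.05). This was the only place in the 4 clusters where peaks of 2 libraries overlapped. It lay within 2 kb of another protein-coding transcript start of Hoxb3, the gene it added when any such start was used.

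Peaks of all libraries were merged where they overlapped, and the libraries with a peak in each merged region were counted. Of the 8 merged regions in the Hox clusters, 7 were found in 1 library, 1 in 2 libraries and 0 in 3 or more. Genome-wide, 30.6% of 27326 merged regions were found in 1 library and 25.3% in all 6. The Hox regions were thus mostly of the kind that did not recur between mice, within a strain or across strains.

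The Hox peaks were also weak and narrow for their lists. Their fold ranged from 2.67 to 4.88, and 8 of 9 lay below the median of their own list, which was 5.23 in B6 replicate 1, 4.93 and 5 in MSM replicates 1 and 2, and 3.38 in F1 BM. Their −log10 q ranged from 1.71 to 6.97, and all 9 lay below the median of their list, between percentiles 0.409 and 28.6. Their widths ran from 230 to 452 bp, and 8 of 9 were narrower than the median peak of the same list. Every list was then shortened to the 11619 peaks with the highest −log10 q, the length of the shortest list. With these lists 0 Hox genes had a peak at the start in any library, against 39.7% of all genes in at least 1 library. Because the cut was by −log10 q, this count follows from the low −log10 q of the Hox peaks.

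**Figure D3:**
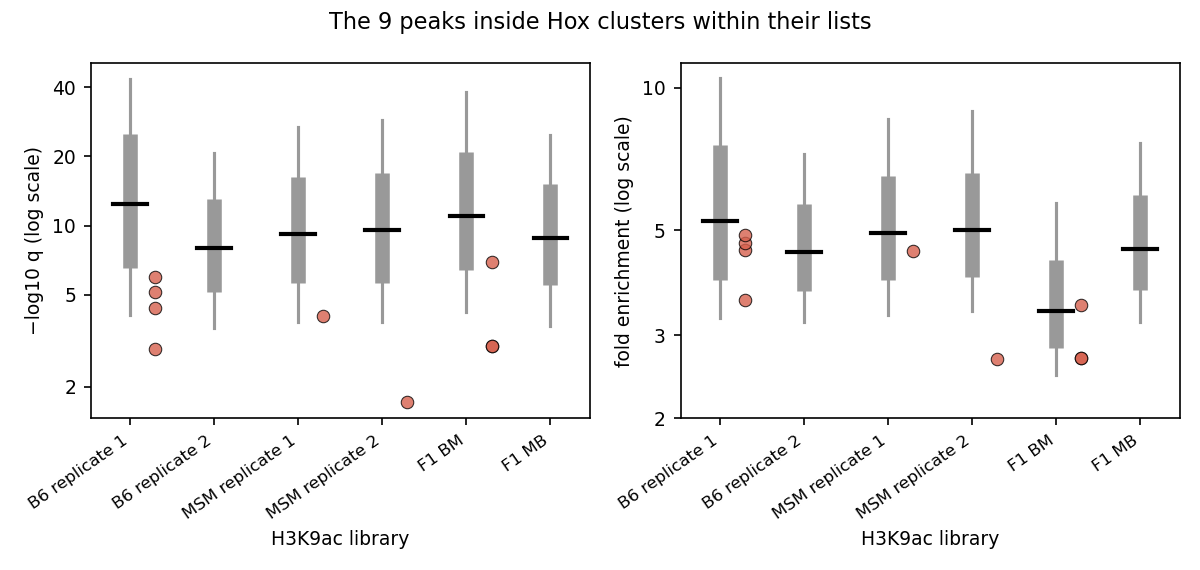
The 9 peaks inside Hox clusters (red points) beside the distribution of all peaks in the same library, as −log10 q (left) and fold enrichment (right), both on log axes. Grey bars span the 25th to 75th percentiles, thin lines the 10th to 90th, and black lines the medians; all 9 points lie below the median −log10 q.

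The share of the 4 clusters covered by peaks was 0.256% for B6 replicate 1 and 0% for B6 replicate 2. The MSM libraries had 0.0496% (replicate 1) and 0.0919% (replicate 2) covered, F1 BM had 0.145% and F1 MB had 0%. Over the whole genome the sequence under peaks made up 0.588% and 0.23% (B6), 0.355% and 0.355% (MSM), 0.45% (F1 BM) and 0.274% (F1 MB). The clusters were below the genome in all 6 libraries. The 100 kb either side of the clusters had 0.257% (replicate 1) and 0.045% (replicate 2) covered in B6. In MSM they had 0.09% (replicate 1) and 0.0457% (replicate 2), with 0.0806% in F1 BM and 0.0467% in F1 MB. These flanks were also below the genome in all 6 libraries, so low cover was not particular to the clusters. Only in MSM replicate 2 and F1 BM were the flanks below the clusters.

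The strains did not differ beyond the spread between replicates. The B6 libraries had a mean of 0.128 ± 0.181% of the clusters under peaks and the MSM libraries 0.0708 ± 0.0299% (SD, n = 2 per strain). MSM minus B6 was -0.0571 percentage points and the SD pooled within strains was 0.13 (exact permutation p = 1, two-sided; the smallest p that 2 against 2 libraries can give is 0.333). Without B6 replicate 1 the difference turned to 0.0708, so its direction rested on that library. In Hoxb alone B6 had 0.362 ± 0.511% and MSM 0.0701 ± 0.0992%, and in Hoxa it was 0% in both B6 libraries and 0.215 ± 0.304% in MSM (exact permutation p = 1 for each, n = 2 per strain). The mean number of Hox genes with a peak was the same in the strains, with 1 and 0 in the B6 libraries and 0 and 1 in the MSM libraries. No Hox gene had a peak in both B6 and neither MSM library, a pattern shown by 0.849% of all genes. No Hox gene had a peak in both MSM and neither B6 library, a pattern shown by 0.333% of all genes.

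The median distance from a Hox start to the nearest peak was longer than that over all protein-coding genes in all 6 libraries. Over the 39 Hox genes it was shortest in F1 BM, at 57319 bp, and longest in B6 replicate 2, at 242224 bp. B6 replicate 1 had a median of 113630 bp, F1 MB one of 208519 bp, and the MSM libraries medians of 151775 bp (replicate 1) and 150836 bp (replicate 2). Over all protein-coding genes the medians ran from 8288 bp in B6 replicate 1 to 45500 bp in B6 replicate 2, with 24370 bp in F1 BM. The longest Hox distance was nevertheless below the 90th percentile over all genes in every library. It was 247833 against 378000 bp in B6 replicate 1, and 480741 against 613703 bp in F1 MB. The B6 medians are over 21728 genes, since the B6 lists hold no peak on the Y chromosome and its genes have no distance there. The MSM and F1 lists hold peaks there, with distances for all 21911 genes. Whether the sex of the mice differed between the strains was not tested. Genes of a cluster share their nearest peak, so these distances are not independent.

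**Figure D4:**
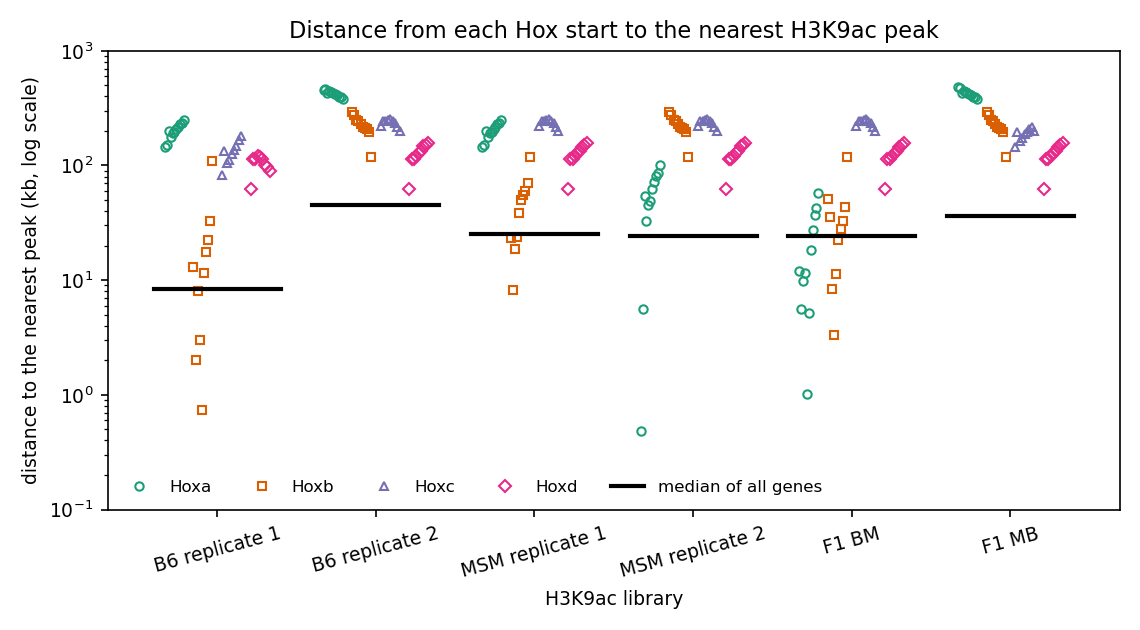
Distance from each Hox start to the nearest peak (y axis, kb, log scale) in the 6 libraries (x axis), by cluster; black lines are the medians over all protein-coding genes. Hoxc and Hoxd starts lie above the black line in every library, and Hoxa and Hoxb starts fall below it only in libraries with a peak inside that cluster.

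The clusters with 0 peaks sat in stretches without a called peak, whose lengths were not compared with those elsewhere in the genome. Hoxd lay in a stretch free of peaks of 914 kb in all libraries but B6 replicate 1, where it was 247 kb. Hoxc lay in a stretch of 518 kb in 4 libraries, of 441 kb in F1 MB and of 380 kb in B6 replicate 1. Hoxa, in the 4 libraries without a peak inside it, lay in stretches of 626, 936, 627 and 1090 kb. Hoxb, in the 3 libraries without a peak inside it, lay in stretches of 753, 753 and 714 kb. Within 100 kb of the edges, Hoxa and Hoxb had 0 peaks in every library.

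The genes next to the clusters showed where peaks resumed. Among the 3 nearest protein-coding genes on each side of each cluster that are no Hox genes, 13 of 24 had a peak at the start in all 6 libraries, 7 had none in any library, and the other 4 had a peak in 1 or 4 libraries. Over all genes 24.4% had a peak in all 6 libraries and 53.2% in none. Mtx2, a mitochondrial outer membrane gene whose nearest annotated base lies 60.7 kb from the edge of Hoxd, had a peak in all 6 libraries. Its fold was 11.9 (replicate 1) and 4.9 (replicate 2) for B6, 9.14 (replicate 1) and 6.99 (replicate 2) for MSM, and 4.64 for F1 BM and 6.81 for F1 MB. Cbx5, the gene for the heterochromatin protein HP1 alpha, lies 155 kb from Hoxc and had folds between 3.6 and 7.24 in the 6 libraries, from a peak that also counted for Hnrnpa1. Atp5g1, an ATP synthase subunit gene 119 kb from Hoxb, had folds between 4.48 and 10.1. Evx1 and Evx2, homeobox genes that lie 52.6 kb from Hoxa and 8.75 kb from Hoxd, had no peak in any library. On the other side of Hoxa the libraries differed: Skap2, 143 kb away, had a peak in 4 libraries, with folds from 2.9 to 4.8, and none in B6 replicate 2 and F1 MB.

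Other genes inside the clusters also had few peaks. The annotation places 46 further genes there, among them the noncoding Hotair and Haglr and 7 miRNA genes. Of the 46, 6 had a peak within 2 kb of the start in at least 1 library and 0 in all 6. The shares of all protein-coding genes were 46.8% and 24.4%. Most of the 46 are noncoding, and the share over noncoding genes of the genome was not computed. Mir10a, the gene of a miRNA conserved in the Hoxb cluster, had the B6 replicate 1 peak of fold 4.7 upstream of Hoxb4. Gm11536 had the peaks of B6 replicate 1 and MSM replicate 1 in the Hoxb3 intron, and Hoxb3os had the B6 replicate 1 peak in Hoxb2. The other 3 of the 6 counted through a single MSM replicate 2 peak. Mir10b, Mir196a-1, Mir196a-2, Mir196b and Mir615 had no peak in any library. Gm28308, 5730596B20Rik and Gm28230, annotated as protein-coding within the clusters but outside the naming rule, also had none.

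Hox starts were more often rich in CpG dinucleotides than other starts, a feature that went with peaks among all genes. Starts were called CpG-rich when the 500 bp either side had at least 50% G and C and an observed over expected CpG ratio of at least 0.6, a split made after the peak counts were known. By this measure 24 of 39 Hox starts (61.5%) were CpG-rich, against 44.4% of all protein-coding genes, with a median CpG ratio of 0.678 against 0.552. The ratio ran from 0.181 at Hoxb2 to 0.996 at Hoxa5. Among the CpG-rich starts of all genes, 76.2% had a peak in at least 1 library and 41.7% in all 6. Among the 24 CpG-rich Hox starts, 3 (12.5%) had a peak in at least 1 library and 0 in all 6. All 3 Hox genes with a peak had CpG-rich starts, and the 15 other Hox starts had 0. In single libraries the CpG-rich starts of all genes had a peak in 48.2% to 74.8% of cases. Of the starts of all genes that were not CpG-rich, 23.3% had a peak in at least 1 library, so the CpG-rich Hox starts had a lower share than either class.

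The clusters also hold few repeats. The share of bases masked as repeats in the assembly was 13.4% in Hoxa, 24.6% in Hoxb, 15.9% in Hoxc and 14.4% in Hoxd, against 36.4% of the genome. Within the 9 Hox peaks the CpG density ran from 2.52 to 8.38 per 100 bp, the latter in the Hoxb3 intron. Over all peaks on the 4 chromosomes that hold the clusters, the median was 3.36 in B6 replicate 1, 3.56 in MSM replicate 1, 3.61 in MSM replicate 2 and 2.46 in F1 BM. The peak with 8.38 was that of B6 replicate 1, where the 90th percentile over the peaks of those 4 chromosomes was 8.71.

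Other genes were examined from 7 lists, of homeobox and paired box genes outside the clusters and of genes that act with or on Hox genes. The liver homeobox genes were marked in this tissue: 8 of 8 had a peak in at least 1 library and 7 in all 6, against 46.8% and 24.4% of all genes. Hhex, needed for liver budding, had a mean fold of 9.7 over the 6 libraries, Onecut2 had 9.29 and Prox1 had 8.57. In each of the 4 libraries with a Hox peak these 3 had a higher fold than any Hox peak of that library.

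Other homeobox genes of development also had few peaks. The 8 ParaHox and Evx genes, the closest relatives of the Hox family (Cdx1, Cdx2, Cdx4, Gsx1, Gsx2, Pdx1, Evx1 and Evx2), had a peak in 0 libraries. Of 38 other developmental homeobox and paired box genes, such as the Dlx, Lhx and Pax families, 1 (2.63%) had a peak in at least 1 library and 0 in all 6. The shares of all genes were 46.8% and 24.4%. That gene was Pax8, a thyroid and kidney regulator, with folds of 8.42 and 10.9 in MSM replicates 1 and 2 and no peak in the B6 and F1 libraries. The pattern of Pax8, present in both MSM and neither B6 library, was that of 0.333% of all genes.

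**Figure D5:**
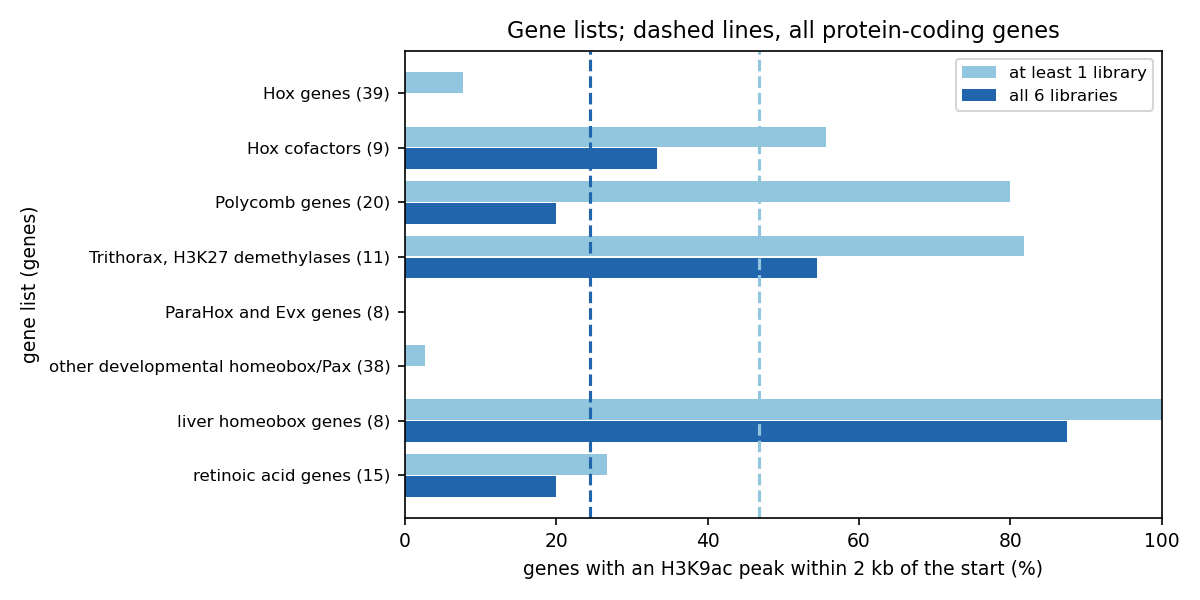
Share of each gene list with an H3K9ac peak within 2 kb of the start (x axis, percent) in at least 1 library (light bars) and in all 6 (dark bars); the number of genes is in brackets and dashed lines are the shares of all protein-coding genes, 46.8% and 24.4%. Hox genes reach 7.69% and 0%, and liver homeobox genes 100% and 87.5%.

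Partners and regulators of Hox genes were counted in the same way, and some of their shares were near those of all genes. Of the 9 Hox cofactors, 5 (55.6%) had a peak in at least 1 library and 3 in all 6, namely Pbx2, Pknox1 and Meis1, with mean folds of 5.57, 5.48 and 5.04. Of 20 Polycomb genes, 16 (80%) had a peak in at least 1 library and 4 (20%) in all 6. Among those 4 were Eed, a core subunit of the complex that methylates lysine 27, with a mean fold of 7.92, Jarid2 with 5.76 and Kdm2b, which binds CpG-rich DNA, with 3.6. Of 11 Trithorax and lysine 27 demethylase genes, 9 (81.8%) had a peak in at least 1 library and 6 in all 6. The highest were the demethylase gene Kdm6a with a mean fold of 8.4, the methyltransferase genes Kmt2d and Kmt2b with 7.69 and 7.43, and Rbbp5 with 7.22. For all genes these shares were 46.8% in at least 1 library and 24.4% in all 6. The shares of the cofactors, and the Polycomb share in all 6, were thus near those of all genes.

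Among 15 retinoic acid genes, 4 (26.7%) had a peak in at least 1 library and 3 (20%) in all 6, against 46.8% and 24.4% of all genes, so the latter share was near that of all genes. Rxra, which codes for a receptor that pairs with many nuclear receptors, had a mean fold of 15.4, Rxrb had 7.54 and Cyp26a1, which breaks down retinoic acid, had 6.09. Rara, Rarb and Rarg, the retinoic acid receptor genes, had no peak within 2 kb of their annotated 5′ ends.

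The tissue label was checked against marker genes. Of 8 hepatocyte markers, 7 had a peak in all 6 libraries, against 24.4% of all genes, with mean folds of 11 at Ttr, 9.2 at Cyp2e1, 8.8 at Fga and 8.13 at Apoa1. Hnf4a was the exception, with no peak within 2 kb of its annotated 5′ end. Whole liver holds other cells as well, and a peak from a rare cell type cannot be told apart from a weak peak in many cells. Of 6 sinusoidal endothelial markers, B6 replicate 1 had a peak at 4 and B6 replicate 2 at 0; MSM replicate 1 had 2, MSM replicate 2 had 5, F1 BM had 5 and F1 MB had 2. Of 6 stellate markers, Dcn and Colec11 had a peak, both in F1 BM alone, the library with the Hoxa5 peak. Sox9 of the 6 cholangiocyte markers and Ptprc of the 6 lymphocyte markers had a peak in B6 replicate 1 alone, the library with the Hoxb5 peak. Of the 4 erythroid markers Klf1 had a peak in all 6 libraries. In single libraries 28.8% to 45.2% of all genes had a peak. The 6 Kupffer and 5 haematopoietic progenitor markers had 0 peaks in any library. The part of other cell types in the few Hox peaks was not tested.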

How the data were processed

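H3K9ac ChIP-seq of adult mouse liver was deposited as 1 peak list per library, so replicates were not pooled. The sources differ on mapping to mm10: the study's methods name Bowtie 2 with a long maximal insert, and the submitters' processing notes name Trim Galore, HISAT2, SAMtools and MACS2, without versions. The calling threshold and the use of input as control were not given in the sources used here; the lowest −log10 q per list was 1.3 to 1.35. Reads of MSM mapped to the B6 genome can be lost where the strains differ.

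The authors' lists give a fold enrichment (a linear ratio), −log10 p and −log10 q, and a score that is a multiple of −log10 q and was not used. The deposited lists hold no read counts, so depth was not used here.

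Starts were the annotated 5′ ends, 1 per protein-coding symbol (longest gene) on chromosomes 1 to 19, X and Y, and a peak counted at a start when at least 1 bp of it lay within 2 kb. Fold at a start is that of the highest peak in the window. Strains were compared by exact permutation, two-sided, of the 4 parental libraries (6 assignments). Alternatives changed the window, the start, the threshold, the length of the lists and the libraries. The rule named Hox genes with a peak, the 3 nearest neighbours per edge by count with examples, and in each list up to 4 genes with the highest mean fold among those found in all 6 libraries. Some genes that this rule names are not reported here. Hnf4a, Rara, Rarb and Rarg were named after their values were seen. The overlap functions were tested on simulated data. Python 3.11.15, numpy 2.4.6, pandas 2.3.3 and matplotlib 3.10.9 were used. The Hox genes and all lists were chosen with earlier results of these data known.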

Additional observations from a re-analysis of the deposited data

How the results depend on the processing

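The number of Hox genes with a peak at the start in at least 1 library was 3 as reported, 1 with a window of 500 bp and 5 with 5 kb. It was 5 with any protein-coding transcript start, and 0 with the same number of peaks or the same covered length per library. With 1 parental library left out at a time it ran from 2 to 3. Without F1 BM it was 2 and without F1 MB 3, settings chosen after seeing the data. The number with a peak in all 6 libraries was 0 under every setting run. The Hox share minus that of all genes was -34.8 percentage points as reported, -30 with equal numbers of peaks, -23 with equal covered length, and -36 to -33.3 with 1 parental library left out. Both list-length settings shorten every list but that of B6 replicate 2, which sets the length. MSM minus B6 in the number of Hox genes was 0 as reported, -1 with 5 kb, and -0.5 to 0.5 with 1 parental library left out. The cause of the change with 5 kb is the pair of added genes, Hoxb2 and Hoxb4, in B6 replicate 1. MSM minus B6 in the covered share of the clusters was -0.0571 points, and -0.185 to 0.0708 with 1 parental library left out, positive only without B6 replicate 1.

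The labels do not say whether same-numbered libraries of B6 and MSM were handled together. Deviations of same-numbered libraries had a correlation of -0.03 over 5759 promoters with a peak in all 4 parental libraries. This value cannot exclude a shared batch. With the replicate number as a block the differences were again 0 genes and -0.0571 points (exact permutation p = 1 for the latter; the smallest possible is 0.5).

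With 2 libraries per strain and 1 per cross, small strain differences at Hox genes were not detectable, and peaks below the calling threshold are not in the lists.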
